A study of Mus musculus with 16 samples.

Results

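The adipocyte libraries of a mouse study of Trib1 were compared by genotype label across all genes. They are the 8 of 16 libraries in the series whose titles name adipocytes, and the other libraries are livers of the same mice. Each library came from 1 male C57BL/6 mouse, and collagenase was used to release the adipocytes from its subcutaneous fat. Libraries are named by mouse number, with WT for wild-type and KO for an adipocyte-specific knockout of Trib1. Mice taken at postnatal day 76 were the wild-type mice WT-1135, WT-1136 and WT-1138 and the knockout-labelled mice KO-1137 and KO-1139. Those taken at postnatal day 70 were WT-1153 on the wild-type side and KO-1151 with KO-1152 on the knockout-labelled side. The labels name neither the driver of the deletion nor the deleted part of the gene.

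Trib1 encodes tribbles 1, a pseudokinase that brings the transcription factor C/EBPα to the ubiquitin ligase COP1 for degradation. Adipocytes store triglyceride in a lipid droplet, release fatty acids from it on hormonal demand and secrete hormones such as adiponectin and leptin. Fat also holds stromal cells, among them capillary endothelium, pericytes, fibroblast-like progenitors and macrophages, and floated fat cells can carry some of them along. A gene of adipocytes and a gene of stromal cells can therefore both differ between 2 such libraries.

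The libraries held 36869197 to 53716669 counts, and 15525 to 16747 genes had at least 1 count. Levels are given in CPM, counts scaled to a common library size, after TMM normalization, and values for the 4 libraries of a group are listed by rising mouse number. The main adipocyte markers were high in every library: the carbonic anhydrase gene Car3 lay between 18714 and 35441 CPM and the fatty acid binding protein gene Fabp4 between 12300 and 17468 CPM. A list of 28 adipocyte markers summed to 64133 to 94977 CPM in wild-type libraries and 84005 to 97361 CPM in those with the knockout label, and no member was at 0 in any library. The first principal component held 66.1% of the variance and separated the labels, with scores of -70.9 to -25.8 in wild-type libraries and 18.2 to 59.5 in those with the knockout label. WT-1135 stood farthest out on one side, and it also had the lowest adipocyte marker sum.

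A score of stromal content, the mean log2 CPM of endothelial, fibroblast and mural markers, separated the labels too. It was 5.66, 5.09, 5.14 and 4.53 in wild-type and 4.35, 3.80, 3.23 and 3.58 in knockout-labelled libraries. Within each label the mice of postnatal day 70 were the lowest. Every change below therefore stands beside this difference, and the part of stromal content in it was not tested.

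Trib1 did not separate the labels. Its level was 752, 925, 1226 and 1293 CPM in the wild-type libraries and 1071, 1273, 1408 and 1345 CPM in the knockout-labelled ones. The groups overlapped, and the log2 difference was 0.28 ± 0.18 (SE, n = 4 per group; edgeR adjusted p = 0.241). A gene total also counts exons that a deletion leaves in place, so this is no check of a partial deletion. The name knockout-labelled is therefore used throughout, and each direction is that of those libraries against wild-type. Cebpa, which encodes the C/EBPα protein, lay at 698 to 930 CPM in wild-type libraries and 705 to 848 CPM in those with the knockout label, a log2 difference of 0.01 ± 0.12 (edgeR adjusted p = 0.951). Of the partners of tribbles proteins, Rfwd2, the gene for COP1, rose from 52.6, 60.04, 57.1 and 65.4 CPM to 81.0, 85.7, 83.8 and 94.4 CPM, with no overlap (log2 difference 0.55 ± 0.09; edgeR adjusted p = 0.00166). Of 12 genes on the list of tribbles genes and partners, 4 rose and 1 fell, 41.7% called against 35.2% of all genes. The fall was that of Trib2, a second tribbles gene, from 5.26 to 18.3 CPM in wild-type to 2.29 to 4.70 CPM (log2 difference -1.66 ± 0.37; edgeR adjusted p = 0.00806). With the stromal score as a covariate Trib2 was at 0.15 and not called, and 1 of the list's risers was still called higher. With library totals in place of TMM the list median went from 0.16 to -0.04 and the calls to 1 higher, Rfwd2, and 1 lower, Trib2.

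**Figure D1:**
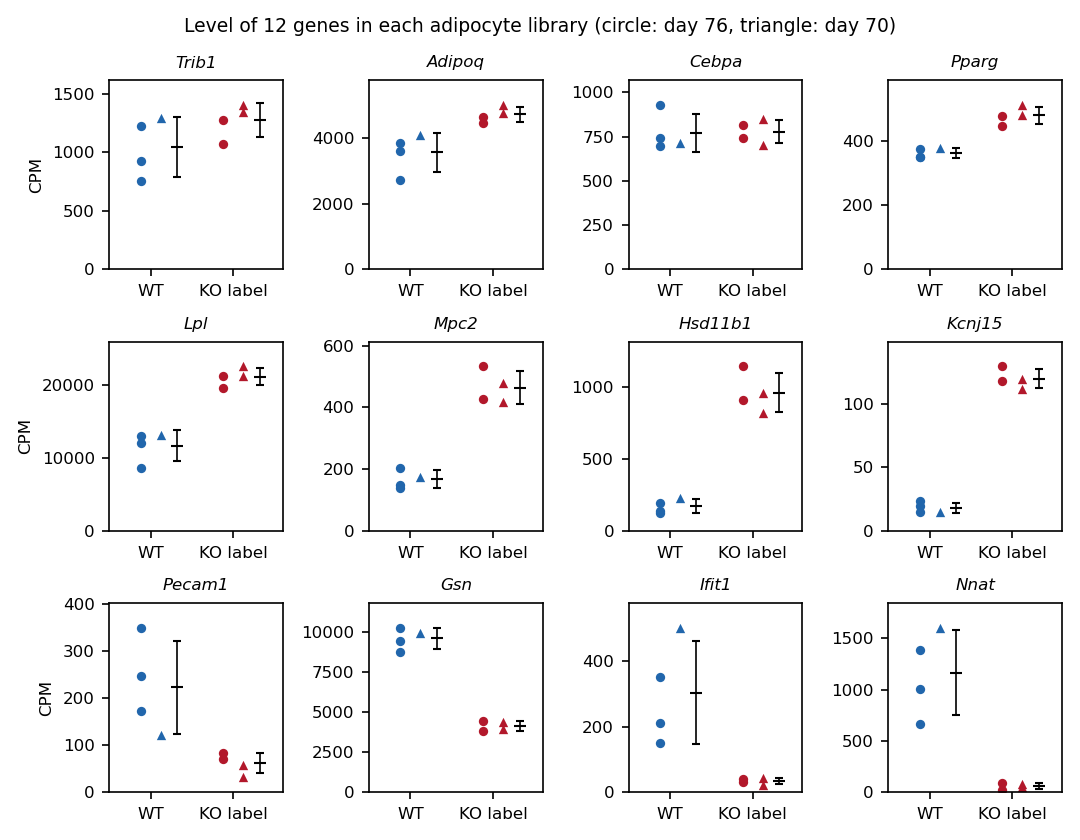
Level of 12 genes in each of the 8 adipocyte libraries, in CPM on linear axes from 0, with circles for mice taken at day 76, triangles for day 70, and the group mean ± SD (n = 4) in black. Trib1 and Cebpa overlap between the groups, while Lpl, Mpc2, Hsd11b1, Kcnj15, Gsn, Ifit1 and Nnat are clearly apart.

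The contrast was broad. The edgeR test called 4849 of 13795 genes, a share of 35.2%, of which 2487 (18%) were higher and 2362 (17.1%) lower with the knockout label. All 4 libraries of one label lay beyond all 4 of the other for 4674 genes, or 33.9%. Called genes divided by level. Above a mean of 1000 CPM 37 were higher and 5 lower of 100 tested, and between 100 and 1000 CPM 605 were higher and 131 lower of 1674. At 1 to 10 CPM the counts were 307 higher and 900 lower of 3624. The genes called higher took 24.7% to 27.6% of all counts in wild-type libraries and 35.0% to 36.3% in knockout-labelled ones, while those called lower took 9.68% to 13.1% and 4.76% to 5.73%. The balance of directions depends on scaling: with library totals 1293 genes were higher and 3899 lower, 24.9% higher in place of 51.3%, and the median log2 change of all genes moved by -0.19. With the libraries scaled by their adipocyte markers 906 genes were higher and 2038 lower, 30.8% higher.

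**Figure D2:**
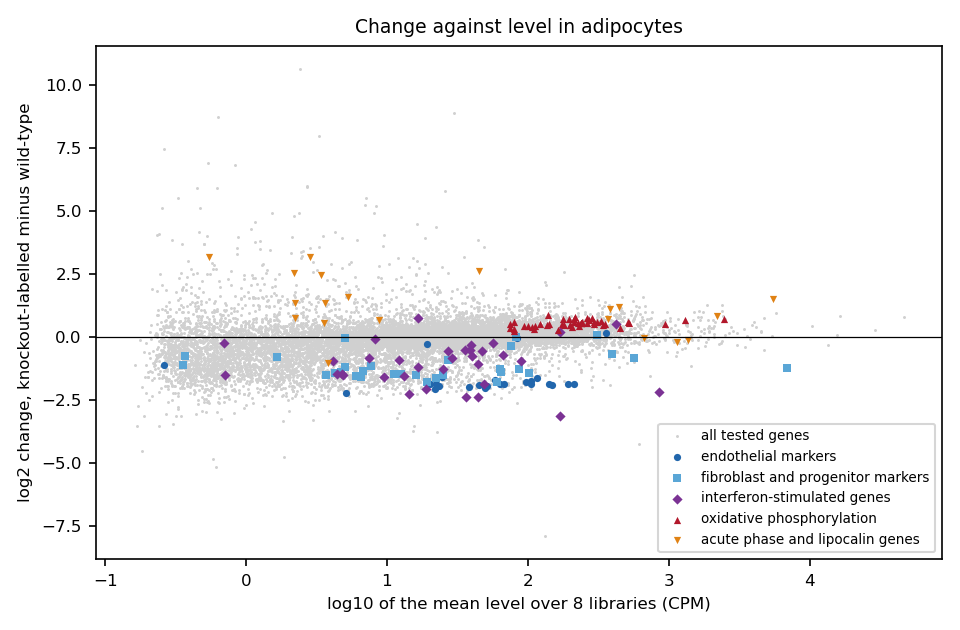
Log2 change of the 13795 tested genes (knockout-labelled minus wild-type) against the log10 of their mean level over the 8 adipocyte libraries in CPM, with 5 gene lists coloured. Most endothelial and fibroblast markers lie below 0 at low to middle levels, with Gsn far higher in level. Oxidative phosphorylation genes form a narrow band above 0 at higher levels.

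The 12 largest rises in CPM belonged to metabolic, acute phase and lipoprotein genes. Lpl, which encodes lipoprotein lipase, rose from 8650, 12986, 12046 and 13246 CPM to 19656, 21252, 22632 and 21296 CPM (log2 difference 0.85 ± 0.18; edgeR adjusted p = 0.00617). Every knockout-labelled library was above every wild-type one. Hp, the haptoglobin gene, rose from 2257, 2273, 3061 and 3734 CPM to 8290, 7907, 8190 and 8391 CPM (1.53 ± 0.18; edgeR adjusted p = 0.000464). Cdo1, the cysteine dioxygenase gene, rose from 1154 to 1531 CPM in wild-type to 2965 to 3684 CPM (1.28 ± 0.13; edgeR adjusted p = 0.000224). Ghr, the growth hormone receptor gene, rose from 1178 to 1931 CPM to 2719 to 3616 CPM (1.05 ± 0.18; edgeR adjusted p = 0.00242). Retn, the gene for the secreted peptide resistin, rose from 841, 1182, 1164 and 1190 CPM to 2371, 2961, 2466 and 2757 CPM (1.27 ± 0.14; edgeR adjusted p = 0.000345). Other large rises in CPM included those of Acsl1, Pck1, Pcx, Apoe (not called with adipocyte marker scaling), C3 and the transferrin gene Trf. The rise of Trf (0.48 ± 0.16; edgeR adjusted p = 0.0451) was the weakest of these. Without any 1 library other than WT-1153 it was not called, at edgeR adjusted p of 0.0607 to 0.115.

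Among genes with at least 10 CPM in both groups, the largest proportional rises were of another kind. Kcnj15, an inward rectifier potassium channel gene, rose from 15.1, 23.3, 19.97 and 15.3 CPM to 118, 130, 120 and 112 CPM (log2 difference 2.71 ± 0.14; edgeR adjusted p = 1.13e-05). Hsd11b1 encodes the enzyme that regenerates active glucocorticoid inside cells. It rose from 126, 135, 195 and 227 CPM to 911, 1142, 820 and 954 CPM (2.49 ± 0.20; edgeR adjusted p = 7.18e-05). Neither gene showed any overlap. Clmp, a cell adhesion gene named for adipocytes, rose from 34.8 to 66.1 CPM to 173 to 242 CPM (2.18 ± 0.20; edgeR adjusted p = 0.000122). Fmr1, which encodes the RNA-binding protein FMRP, rose from 183, 169, 255 and 252 CPM to 1103, 810, 884 and 688 CPM (2.02 ± 0.19; edgeR adjusted p = 0.000129). The others of the 12 were Saa3, 1100001G20Rik, Tnfaip2, Rassf3, Dock8, Mgst2, Tmem45b and Adtrp, at log2 differences of 1.91 to 2.63.

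Of the largest falls, Gsn, the actin-severing protein gelsolin, went from 8760, 9458, 10264 and 9935 CPM to 4447, 3819, 3978 and 4378 CPM (log2 difference -1.21 ± 0.13; edgeR adjusted p = 0.000255). Nnat, the imprinted neuronatin gene on chromosome 2, fell from 1008, 661, 1385 and 1601 CPM to 91.6, 23.3, 82.6 and 49.97 CPM (-4.23 ± 0.46; edgeR adjusted p = 0.000264). For both genes the groups lay far apart. Thbd, the gene for thrombomodulin, fell from 91.7 to 178 CPM in wild-type to 16.3 to 34.7 CPM (-2.62 ± 0.27; edgeR adjusted p = 0.000219). Clu, the clusterin gene, fell from 65.2 to 114 CPM to 15.6 to 22.9 CPM (-2.27 ± 0.19; edgeR adjusted p = 7.18e-05). Celsr2, an adhesion receptor of the cadherin family, fell from 92.3 to 141 CPM to 24 to 28.8 CPM (-2.20 ± 0.13; edgeR adjusted p = 2.16e-05). Sncg, the gamma-synuclein gene of fat cells, fell from 647 to 832 CPM to 264 to 482 CPM (-1.0 ± 0.18; edgeR adjusted p = 0.0032).

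Markers of stromal cells were lower in the knockout-labelled libraries, and they also differed within each group. Of 26 endothelial markers 22 fell and 0 rose, 84.6% called against 35.2% of all genes. Their median log2 change was -1.85 against -0.01 for all genes tested. Pecam1, the endothelial adhesion molecule CD31, was at 350, 173, 248 and 121 CPM in wild-type and 83.7, 70.2, 33.6 and 58.4 CPM in knockout-labelled libraries (-1.86 ± 0.35; edgeR adjusted p = 0.00394). WT-1135 was the highest and WT-1153 the lowest wild-type library, and KO-1151 the lowest of all. Cdh5, the junction gene VE-cadherin, had the same order of libraries in the wild-type group, at 527, 248, 381 and 187 CPM against 114, 110, 54.7 and 93.4 CPM (-1.85 ± 0.33; edgeR adjusted p = 0.00328). Kdr, the main receptor for vascular endothelial growth factor, fell by 1.88 ± 0.32 on the log2 scale, and Tek, the angiopoietin receptor, by 1.98 ± 0.34. The 4 markers that were not called were Nos3 (-0.03), Rgcc (0.17) and the lymphatic genes Lyve1 (-0.28; -1.18 and called without KO-1137) and Prox1 (-1.09). The list summed to 1888 to 4510 CPM in wild-type libraries and 866 to 1447 CPM in those with the knockout label. In bulk libraries fewer cells of a type and less RNA per cell cannot be told apart.

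Fibroblast and progenitor markers fell for 17 of 30 and rose for 0, 56.7% called against 35.2% of all genes, with a median of -1.30. Pdgfra, the receptor that marks progenitors, was at 11.3, 10.3, 8.38 and 6.36 CPM in wild-type and 6.23, 2.16, 1.69 and 2.19 CPM in knockout-labelled libraries (-1.56 ± 0.40; edgeR adjusted p = 0.0142). KO-1137 came close to the lowest wild-type library, and the other 3 were well below it. Dcn, the matrix proteoglycan decorin, showed the same placing of KO-1137, with 114 to 203 CPM in wild-type and 106, 38.5, 31.1 and 47.0 CPM in knockout-labelled libraries (-1.42 ± 0.36; edgeR adjusted p = 0.0138). With the stromal score, which these markers are part of, as a covariate, Dcn was at 0.019. The tissue factor gene F3 (0.09 ± 0.32) and Efemp1 (-0.01 ± 0.18) were among the members that were not called. The summed level was 11249 to 12794 CPM in wild-type libraries and 5129 to 6349 CPM in those with the knockout label, with most of the counts in Gsn and Dpt. Without these members the sums were 1692 to 1899 and 962 to 1374 CPM, which still did not overlap.

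Of 17 tested pericyte and smooth muscle markers 14 fell and 0 rose, 82.4% called against 35.2% of all genes, with a median of -1.35. Pdgfrb, the receptor of mural cells, was at 16.6, 8.72, 9.34 and 4.58 CPM in wild-type and 4.38, 4.21, 2.21 and 2.19 CPM in knockout-labelled libraries (-1.59 ± 0.39; edgeR adjusted p = 0.012). With the stromal score, which these markers are part of, as a covariate, Pdgfrb was at 0.31 and Rgs5 at 0.53, neither called. In that fit 2 of the 17 members were called lower, Abcc9 among them. Abcc9, a regulatory subunit of the pericyte potassium channel, fell from 13.7 to 20.9 CPM to 2.51 to 5.0 CPM (-2.27 ± 0.21; edgeR adjusted p = 0.000139). Rgs5, a pericyte marker, fell by 0.98 ± 0.32 (edgeR adjusted p = 0.04). Its groups overlapped, at 15.5 to 42.7 and 8.51 to 19.2 CPM, and without WT-1135, WT-1138, KO-1151 or KO-1152 it was not called, at edgeR adjusted p of 0.0887 to 0.102. Steap4 (-0.20 ± 0.20) and Mcam (0.15 ± 0.15) were not called, and they held most of the list's counts, so the full sums overlapped at 1763 to 2246 and 1340 to 1990 CPM. Without them the sums were 341 to 530 CPM in wild-type libraries and 144 to 223 CPM in those with the knockout label.

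**Figure D3:**
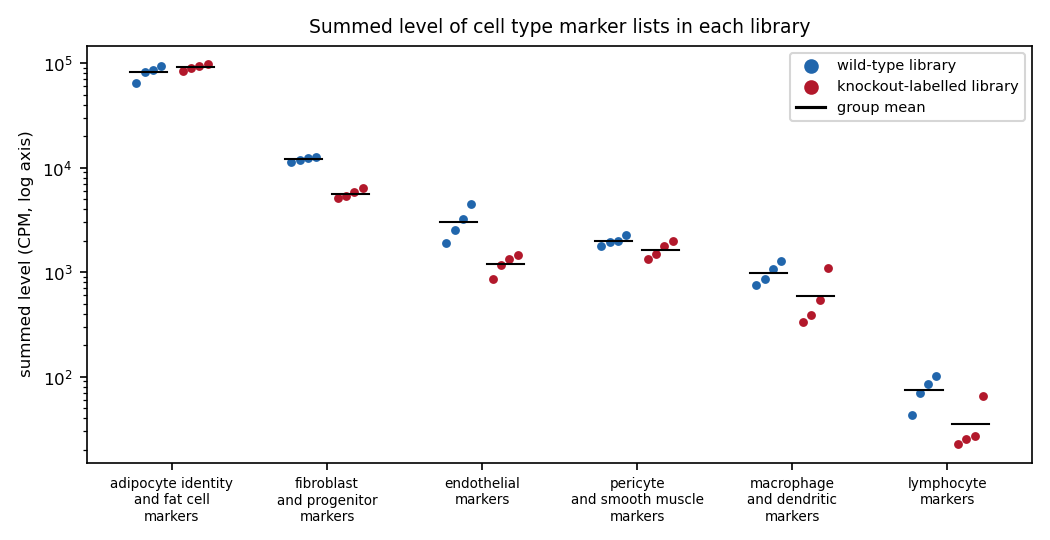
Summed level in CPM (log axis) of 6 cell type marker lists in each wild-type (blue) and knockout-labelled (red) adipocyte library, with black bars for group means. Endothelial and fibroblast sums do not overlap between the groups, adipocyte, pericyte and macrophage sums do, and 1 knockout-labelled library, KO-1137, is high for macrophage and lymphocyte markers.

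All tested macrophage and lymphocyte markers had log2 changes below 0, but smaller shares of them were called than of the stromal lists. The smallest falls were -0.19 for macrophage and dendritic and -0.65 for lymphocyte markers. Of 28 macrophage and dendritic markers 3 were called lower and 0 higher, a share below the 17.1% of all genes called lower. Their median was -0.66. Emr1, the gene for the macrophage marker F4/80, was at 12, 8.14, 7.71 and 6.38 CPM in wild-type and 12, 2.28, 6.6 and 3.0 CPM in knockout-labelled libraries (-0.52 ± 0.46; edgeR adjusted p = 0.405). KO-1137 equalled the highest wild-type library, and without KO-1137 the difference was -1.11 and called. Cd14, a receptor for bacterial lipopolysaccharide, was the clearest of the 3 falls, from 78.7 to 117 CPM to 30.5 to 42.8 CPM (-1.30 ± 0.15; edgeR adjusted p = 0.000333). Of 21 tested lymphocyte markers 8 fell and 0 rose (median -1.09), 38.1% called against 35.2% of all genes. The summed level of macrophage markers was 753 to 1271 CPM in wild-type libraries and 331 to 1095 CPM in those with the knockout label, and that of lymphocyte markers 43.2 to 101 and 22.7 to 64.7 CPM. Ptprc, the gene for the leukocyte antigen CD45, was at 29.1, 20.7, 15.1 and 21.0 CPM and 19.8, 6.04, 8.62 and 7.33 CPM (-1.04 ± 0.36; edgeR adjusted p = 0.0477). Without any 1 library other than WT-1138 or KO-1137 it was not called, at edgeR adjusted p of 0.0694 to 0.13.

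Matrix genes went both ways. Of 26 tested collagen genes 11 fell and 2 rose (50% called, median -0.58). Of 41 further matrix genes 22 fell and 3 rose (61% called, median -1.31), against 35.2% of all genes called. Bgn, which encodes the small proteoglycan biglycan, fell from 126, 66.8, 125 and 120 CPM to 22.9, 26.4, 13.5 and 19.3 CPM (-2.41 ± 0.25; edgeR adjusted p = 0.000215). Col6a3, a chain of the collagen VI of fat, fell from 62.7 to 104 CPM to 14.3 to 25.9 CPM (-1.95 ± 0.21; edgeR adjusted p = 0.000289). The partner chains Col6a1 (0.12 ± 0.20) and Col6a2 (0.20) and the basement membrane chains Col4a1 (-0.19 ± 0.14) and Col4a2 (0.10) were not called. Col5a3, a collagen V chain, rose from 372, 521, 373 and 357 CPM to 1205, 885, 875 and 849 CPM (1.23 ± 0.16; edgeR adjusted p = 0.000738). Lox, the enzyme that cross-links collagen, rose from 81.0, 85.6, 153 and 192 CPM to 359, 346, 374 and 342 CPM (1.48 ± 0.26; edgeR adjusted p = 0.00283). Nid2, the basement membrane glycoprotein nidogen 2, rose from 47.9 to 76.0 CPM to 135 to 204 CPM (1.4 ± 0.16; edgeR adjusted p = 0.000381). None of these risers overlapped between the groups.

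Adipocyte markers changed little as a list. Of 28 members 9 rose and 2 fell, 39.3% called against 35.2% of all genes, and the median of 0.24 was 0.05 with library totals. Pparg, the nuclear receptor that drives fat cell formation, rose from 348, 350, 375 and 377 CPM to 476, 447, 480 and 512 CPM (0.40 ± 0.08; edgeR adjusted p = 0.0051). Its groups were narrow and apart, but with library totals the difference of 0.21 was not called. Tshr, the thyrotropin receptor gene, rose from 95.2 to 155 CPM to 216 to 285 CPM (0.97 ± 0.15; edgeR adjusted p = 0.00156). Adipoq, the adiponectin gene, was at 2735, 3601, 3857 and 4093 CPM and 4647, 4469, 4779 and 5028 CPM (0.41 ± 0.15; edgeR adjusted p = 0.0548), apart but not called by edgeR. DESeq2 and limma-voom called it, at 0.40 and 0.42. Lep, the leptin gene, overlapped widely at 353 to 725 and 434 to 782 CPM (0.04 ± 0.26; edgeR adjusted p = 0.913). Cidea, a droplet protein, was one of the falls, from 51.6 to 72.9 CPM to 20.8 to 34.6 CPM (-1.03 ± 0.16; edgeR adjusted p = 0.00185). Of 32 adipogenic and lipid transcription factors 6 rose and 3 fell, 28.1% called, and their median of 0.05 turned to -0.14 with library totals and -0.10 with adipocyte marker scaling.

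Triglyceride synthesis genes rose for 10 of 19 and fell for 1, 57.9% called against 35.2% of all genes. Gpam, the acyltransferase of the first step, went from 167, 211, 238 and 236 CPM to 390, 442, 486 and 297 CPM (0.92 ± 0.17; edgeR adjusted p = 0.00323). Dgat1 and Dgat2 encode the enzymes of the last step. Dgat1 rose from 258 to 417 CPM to 488 to 660 CPM (0.77 ± 0.15; edgeR adjusted p = 0.0051) and Dgat2 from 1005 to 1253 CPM to 1488 to 2384 CPM (0.66 ± 0.15; edgeR adjusted p = 0.00973). Pck1, which supplies glycerol phosphate in fat, rose from 2989 to 4081 CPM to 5299 to 6679 CPM (0.74 ± 0.15; edgeR adjusted p = 0.00483). Gpd1, which reduces dihydroxyacetone phosphate to glycerol phosphate, was not called (0.12 ± 0.17). Lpin3, a phosphatidate phosphatase, was the gene that fell, by 1.02 ± 0.20 on the log2 scale, from 6.27 to 10.5 CPM to 3.66 to 5.58 CPM.

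Of 19 fatty acid synthesis genes 6 rose and 2 fell, 42.1% called against 35.2% of all genes. Among the 6 were makers of NADPH: Me1, malic enzyme, from 919 to 1420 CPM to 1896 to 3106 CPM (1.04 ± 0.20; edgeR adjusted p = 0.00452), G6pdx by 0.97 ± 0.12 and Pgd by 0.96 ± 0.15. Fasn, the fatty acid synthase gene, overlapped between groups at 7755 to 9911 and 8137 to 18919 CPM (0.43 ± 0.26; edgeR adjusted p = 0.217). KO-1139 was the highest library for Fasn and for Me1. Fads1, the delta-5 desaturase, fell from 86.3, 74.6, 95.1 and 89.7 CPM to 19.8, 29.6, 20.9 and 24.1 CPM (-1.87 ± 0.13; edgeR adjusted p = 4.07e-05), while Fads2 was at -0.02.

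In lipolysis and its hormonal control 12 of 24 genes rose and 3 fell, 62.5% called against 35.2% of all genes. The lipases were not called, with Pnpla2, adipose triglyceride lipase, at 0.24 ± 0.13 and Lipe, hormone-sensitive lipase, at 0.19 ± 0.12. Abhd5, the coactivator of adipose triglyceride lipase, rose from 291, 395, 320 and 394 CPM to 714, 693, 755 and 737 CPM (1.05 ± 0.12; edgeR adjusted p = 0.000302). Adrb3, the adipocyte catecholamine receptor, rose from 384 to 582 CPM to 657 to 962 CPM (0.79 ± 0.16; edgeR adjusted p = 0.00538). Gnai1, an inhibitory G protein subunit, rose as well, from 311 to 442 CPM to 774 to 961 CPM (1.20 ± 0.12; edgeR adjusted p = 0.000224). Npr1, the natriuretic peptide receptor, fell from 99.4, 47.1, 66.7 and 31.9 CPM to 22.7, 20.6, 10.9 and 13.6 CPM (-1.85 ± 0.35; edgeR adjusted p = 0.00398), in the same order of wild-type libraries as Pecam1. The part of stromal content in the Npr1 fall was not tested. In fatty acid uptake 9 of 18 rose and 3 fell, 66.7% called against 35.2% of all genes. Acsl1, which activates fatty acids, rose from 2815 to 4510 CPM to 5994 to 9195 CPM (0.96 ± 0.20; edgeR adjusted p = 0.00616), and Gpihbp1, the capillary anchor of lipoprotein lipase, fell by 1.63 ± 0.31. Cd36 (0.06) and Fabp4 (0.08) were not called.

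With library totals in place of TMM, triglyceride synthesis had 8 higher and 2 lower, lipolysis 5 and 4, and fatty acid uptake 6 and 3.

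The pathways from sugar to the mitochondrial matrix rose in a larger share than the lipid lists. Of 29 genes of the tricarboxylic acid cycle and pyruvate entry 27 rose and 0 fell, 93.1% called against 35.2% of all genes. Their median log2 change was 0.67. Mpc2, a subunit of the mitochondrial pyruvate carrier, rose from 150, 204, 139 and 175 CPM to 428, 533, 417 and 478 CPM (1.47 ± 0.14; edgeR adjusted p = 0.000132). Dlat and Pdha1, of the pyruvate dehydrogenase complex, rose by 1.22 ± 0.14 and 1.0 ± 0.13. Every knockout-labelled library was above every wild-type one for these genes. Idh3a, a subunit of isocitrate dehydrogenase, rose from 300 to 345 CPM to 518 to 700 CPM (0.97 ± 0.11; edgeR adjusted p = 0.000331), and Cs, citrate synthase, by 0.64 ± 0.12. The 2 that were not called by edgeR were Idh2 (0.06) and Suclg2 (0.32; 0.41 and called without KO-1137). In glycolysis 11 of 15 tested genes rose and 1 fell, 80% called. Ldhb, a lactate dehydrogenase subunit, rose from 59.5 to 68.7 CPM to 128 to 158 CPM (1.14 ± 0.08; edgeR adjusted p = 4.32e-05). Hk1 fell from 16.4 to 33.2 CPM to 9.82 to 16.2 CPM (-1.0 ± 0.22; edgeR adjusted p = 0.00817), and with the stromal score as a covariate it was at 0.082 and not called.

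Of 47 nuclear-encoded oxidative phosphorylation genes 45 rose and 0 fell, 95.7% called against 35.2% of all genes. Their log2 changes lay within a narrow range around the median of 0.54. Cycs, cytochrome c, rose the most, from 89.9, 110, 92.9 and 104 CPM to 148, 196, 184 and 194 CPM (0.86 ± 0.11; edgeR adjusted p = 0.000617). Atp5b, the catalytic subunit of ATP synthase, rose from 1643 to 2149 CPM to 2849 to 3331 CPM (0.72 ± 0.12; edgeR adjusted p = 0.00245). Uqcrc1, a core subunit of complex III, rose from 243 to 299 CPM to 382 to 437 CPM (0.62 ± 0.09; edgeR adjusted p = 0.00141). Ndufa2 (0.25) and Ndufs7 (0.33) were not called, but were without WT-1136 (0.35 and 0.46). Of 60 mitochondrial ribosome genes 35 rose and 0 fell, 58.3% called, with a median of 0.32. Of 50 cytosolic ribosome genes 0 rose and 2 fell, 4% called, with a median of -0.15. In branched chain amino acid breakdown 14 of 21 rose and 1 fell, 71.4% called. Oxct1, which activates ketone bodies, rose the most, from 232 to 390 CPM to 726 to 860 CPM (1.45 ± 0.16; edgeR adjusted p = 0.000303). Bckdhb, a subunit of the branched chain keto acid dehydrogenase, rose from 68.2 to 90.8 CPM to 179 to 222 CPM (1.35 ± 0.11; edgeR adjusted p = 8.02e-05). In fatty acid oxidation 15 of 27 rose and 1 fell, 59.3% called. Acadvl, the first dehydrogenase for long chains, rose from 271 to 312 CPM to 471 to 609 CPM (0.92 ± 0.10; edgeR adjusted p = 0.000288). With libraries scaled by adipocyte markers the oxidative phosphorylation count was 26 higher and 0 lower and the mitochondrial ribosome count 6 higher and 0 lower.

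**Figure D4:**
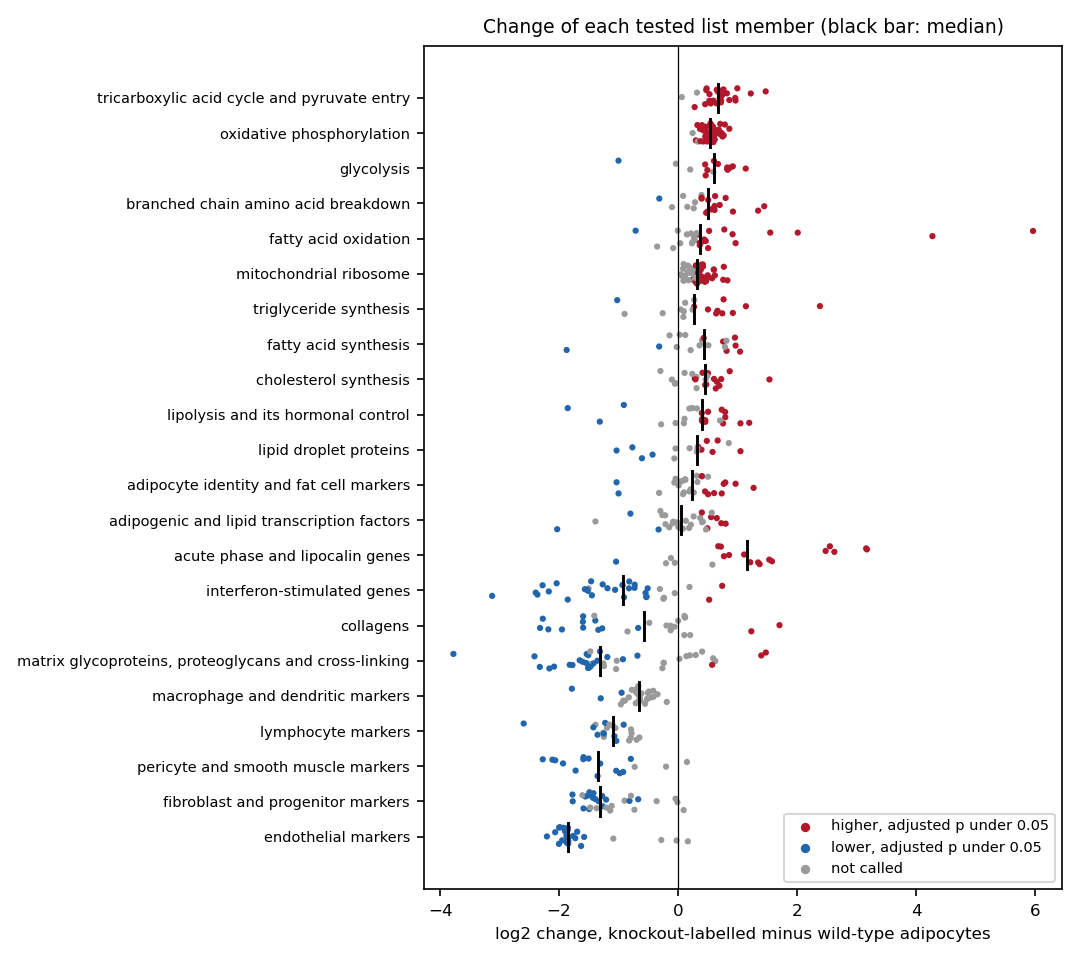
Log2 change (knockout-labelled minus wild-type adipocytes) of each tested member of 22 gene lists, red for called higher, blue for called lower, grey for not called, with a black bar at each list's median. Most members of the mitochondrial lists lie right of 0, and most of those of the stromal marker lists lie left of it. Lipid, collagen and interferon lists are spread.

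Genes of thermogenic fat went both ways, with 7 of 21 tested higher and 7 lower, 66.7% called against 35.2% of all genes. Ucp1, the uncoupling protein of brown and beige fat, was at 56.5, 8.74, 6.52 and 6.46 CPM in wild-type and 6.56, 3.57, 7.91 and 4.79 CPM in knockout-labelled libraries (-1.78 ± 0.71; edgeR adjusted p = 0.0759). WT-1135 stood far above the other 7 libraries. The remaining wild-type libraries, at 6.46 to 8.74 CPM, overlapped the knockout-labelled ones. Without WT-1153, a fit that keeps WT-1135, the difference was -2.07 and called. Elovl3, a fatty acid elongase of brown fat and liver, rose from 2.52, 1.11, 1.19 and 0.634 CPM to 16.8, 51.9, 27.4 and 28.6 CPM (4.49 ± 0.46; edgeR adjusted p = 0.000206). Kcnk3, a potassium channel gene, rose from 58.5 to 66.3 CPM to 105 to 122 CPM (0.86 ± 0.08; edgeR adjusted p = 0.000107). Slc27a2, a fatty acid transporter, fell from 1.84 to 4.95 CPM to 0.164 to 0.462 CPM (-3.32 ± 0.40; edgeR adjusted p = 0.000502), at levels of few counts.

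Of 20 tested acute phase and lipocalin genes 15 rose and 1 fell, 80% called against 35.2% of all genes, with a median of 1.16. Beside Hp, Saa3, a serum amyloid A made by fat and macrophages, rose from 8.09, 11.3, 14.5 and 16.2 CPM to 77.8, 64.1, 81.8 and 85.4 CPM (2.63 ± 0.20; edgeR adjusted p = 5.39e-05). Of 28 macrophage and dendritic markers 0 rose, and the cell source of the Saa3 rise was not tested. C3, the central complement component, rose from 1165 to 1931 CPM to 2177 to 3082 CPM (0.86 ± 0.18; edgeR adjusted p = 0.00634), and Lcn2, lipocalin 2, from 1.86 to 3.05 CPM to 6.85 to 9.52 CPM (1.58 ± 0.19; edgeR adjusted p = 0.000489). The list's fall was that of Itih4 (-1.04), which without any 1 library other than WT-1136 was not called (edgeR adjusted p of 0.0578 to 0.102). Outside the list C4b, another complement gene, fell from 1442 to 2555 CPM to 643 to 1030 CPM (-1.14 ± 0.20; edgeR adjusted p = 0.00304). Saa1 and Saa2 also rose but are near-identical copies whose reads can be shared.

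Interferon-stimulated genes fell for 25 of 34 and rose for 2, 79.4% called against 35.2% of all genes, with a median of -0.93. Many such genes carry the interferon-stimulated response element, a promoter element through which interferon signalling acts. Ifit1, an antiviral RNA-binding protein, fell from 212, 150, 351 and 502 CPM to 42.1, 30.8, 22.9 and 43.6 CPM (-3.12 ± 0.38; edgeR adjusted p = 0.00049). Its highest library, WT-1153, was the wild-type library with the lowest endothelial markers and the only wild-type one of postnatal day 70. What lay behind this order was not tested. Ifit3 fell from 70.2, 40.2, 87.9 and 101 CPM to 18.5, 11.9, 12.1 and 14.3 CPM (-2.39 ± 0.27; edgeR adjusted p = 0.000344), and Isg15, a ubiquitin-like modifier, from 23.5 to 36.0 CPM to 3.49 to 10.04 CPM (-2.04 ± 0.30; edgeR adjusted p = 0.00136). Outside the list Iigp1, a GTPase induced by interferon gamma, fell from 830, 807, 1143 and 1637 CPM to 284, 316, 462 and 458 CPM (-1.54 ± 0.26; edgeR adjusted p = 0.00235). Irf7 fell within narrow groups, 76.2 to 88.3 CPM and 47.8 to 53.2 CPM (-0.73 ± 0.08; edgeR adjusted p = 0.000223). Psmb8 and Psmb9, immunoproteasome subunits, fell by 1.06 ± 0.09 and 1.19 ± 0.12. Of 34 proteasome genes 19 rose and 0 fell, 55.9% called. Their median of 0.28 was 0.09 with library totals, with 2 calls. Isg20 and Ifi27l1 rose, the latter not with library totals (0.34).

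Promoters of 3 falling interferon genes are shown because each holds letters matching the response element within 250 bases of the start site. The sequences are RefSeq's for GRCm38.p6, 250 bases before to 50 bases after the start, 5′ to 3′ on the gene's strand, with the letters GAAA, any 2 bases and GAAA again, on either strand, in capitals (overlapping matches merge). Ifit1 is at chr19:34640639-34640938 and Ifit3 at chr19:34583279-34583578 on the plus strand, and Isg15 is at chr4:156200769-156201068 on the minus strand.
Ifit1: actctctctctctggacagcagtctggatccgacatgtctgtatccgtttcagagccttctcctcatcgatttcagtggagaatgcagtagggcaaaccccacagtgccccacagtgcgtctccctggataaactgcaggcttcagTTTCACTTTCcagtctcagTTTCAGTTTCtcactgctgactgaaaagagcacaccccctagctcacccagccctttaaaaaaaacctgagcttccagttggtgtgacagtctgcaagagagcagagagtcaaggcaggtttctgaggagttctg
Ifit3: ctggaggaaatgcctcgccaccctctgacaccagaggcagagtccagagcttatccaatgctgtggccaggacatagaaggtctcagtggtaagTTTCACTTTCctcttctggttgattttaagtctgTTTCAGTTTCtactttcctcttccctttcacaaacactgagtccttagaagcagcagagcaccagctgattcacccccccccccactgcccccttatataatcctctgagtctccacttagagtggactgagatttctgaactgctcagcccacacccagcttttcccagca
Isg15: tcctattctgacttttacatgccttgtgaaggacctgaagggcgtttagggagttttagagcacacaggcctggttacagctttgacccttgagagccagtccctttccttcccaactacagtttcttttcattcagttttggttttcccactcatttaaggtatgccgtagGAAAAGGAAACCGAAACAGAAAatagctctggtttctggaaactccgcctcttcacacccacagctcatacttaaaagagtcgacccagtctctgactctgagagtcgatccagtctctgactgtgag
A match was present for 11 of the 24 list members with a promoter in the table, against 3.99% of 27025 genes. It was present for 7 of the 19 matched members that fell and for all 4 that were not called. For comparison, NRF1's motif (GCGC, any base, TGCGC), searched on both strands, was found for 9 of 35 matched oxidative phosphorylation genes against 5.19% of genes, and the promoter of Uqcrc1 (chr9:108936398-108936697, plus strand) holds it near the start site, in capitals.
Uqcrc1: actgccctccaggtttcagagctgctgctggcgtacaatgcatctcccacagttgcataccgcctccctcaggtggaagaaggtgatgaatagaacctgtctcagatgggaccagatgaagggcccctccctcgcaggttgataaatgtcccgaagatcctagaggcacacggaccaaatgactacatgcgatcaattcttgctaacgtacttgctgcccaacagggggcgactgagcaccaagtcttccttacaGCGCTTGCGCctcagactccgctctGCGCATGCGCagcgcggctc
In cholesterol synthesis 13 of 23 genes rose and 0 fell, 56.5% called against 35.2% of all genes. The median was 0.46, and with library totals 7 rose and 1 fell. The sterol element TCACNCCAC was found for 1 of 17 matched members, Hmgcs1, against 1.44% of genes. Hmgcs1, a synthase early in the pathway, rose from 69.8 to 105 CPM to 135 to 193 CPM (0.87 ± 0.15; edgeR adjusted p = 0.00303). These matches describe the letters only, and binding was not measured.

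Imprinted genes went both ways, 5 higher and 8 lower of 23 tested, 56.5% called against 35.2% of all genes. Nnat, given above, was the largest fall among those above 10 CPM. Ndn, the necdin gene, rose from 18, 23.3, 19.6 and 19.8 CPM to 66.1, 61.2, 58.5 and 58.0 CPM (1.6 ± 0.09; edgeR adjusted p = 2.07e-05). Plagl1, a zinc finger gene of fetal growth, rose from 85.7, 62.0, 117 and 109 CPM to 202, 204, 224 and 222 CPM (1.19 ± 0.17; edgeR adjusted p = 0.00131). Mest, which is known to mark fat expansion, rose from 7.58 to 52.6 CPM to 71.6 to 203 CPM (1.86 ± 0.52; edgeR adjusted p = 0.0217). Its groups were apart but wide, and without WT-1135 it was 1.82 and not called (edgeR adjusted p = 0.0588). H19, a noncoding RNA, fell from 4.47, 6.42, 2.15 and 1.36 CPM to 0.160, 0.124, 0.0545 and 0.173 CPM, levels near 3 counts in the knockout-labelled libraries, and no fold is given.

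The stromal score was then put into the model. With the score as a covariate edgeR called 480 genes, 266 higher and 214 lower. Of these 414 were also called without it, all in the same direction. Of the 24 largest proportional changes given above 22 were called with the covariate, and Thbs2 was among those that were not. The median absolute log2 change of the 24 was 2.23 without and 2.25 with it. These genes were picked as called, apart and large in the same libraries, so this is no test of stromal content. Of the 12 largest rises in CPM 1 was called, that of Cdo1, and of the 12 largest falls in CPM 4. Endothelial, fibroblast and mural markers make up the score, so the covariate removes their shared change by construction and their values in this fit, that of Gsn included, are no test. Oxidative phosphorylation genes, which are no part of it, went to 0 called and a median absolute change of 0.30 from 0.54. Interferon-stimulated genes had 10 called, among them Ifit1 (-3.49), Mx2 (-2.74) and Irf7 (-0.86). Mpc2 (1.34), Ldhb (1.16), Fads1 (-1.94), Bckdhb (0.96), Gnai1 (1.09), Ndn (1.64) and Gsn (-1.23) were called with the covariate. Lpl (0.40), Hp (1.13), Retn (0.94), Ghr (0.46) and Adrb3 (1.08) were not. Because the score differs between the labels almost as the labels do, the fit can hardly tell the score and the label apart.

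**Figure D5:**
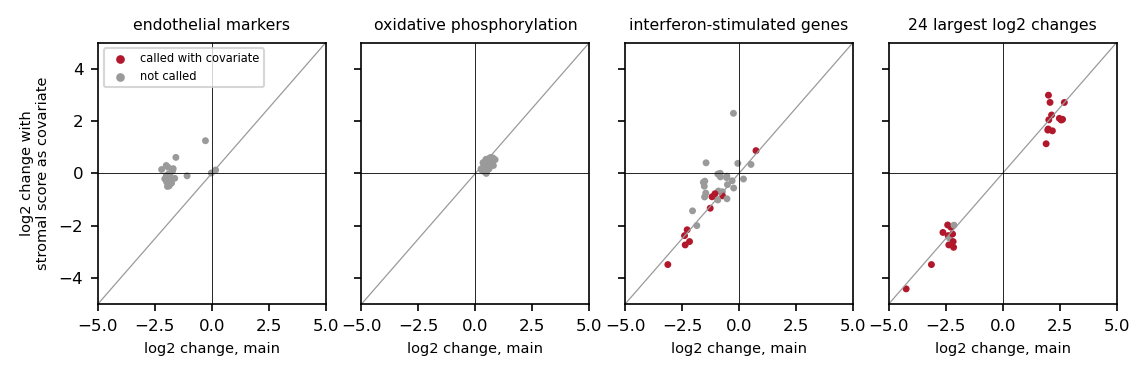
Log2 change with the stromal score as a covariate against the log2 change without it, for 3 gene lists and the 24 genes with the largest changes, with the grey diagonal marking equal values and red points called with the covariate. Endothelial markers, which are part of the score, move to near 0 by construction, and oxidative phosphorylation genes move part of the way. The 24 genes, picked for size in these same libraries, stay near the diagonal.

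With age as a term in the model 4571 genes were called. Within postnatal day 76, with 3 wild-type and 2 knockout-labelled mice, 2461 were called. Kcnj15 was at 2.67 there, Fads1 at -1.79, Gsn at -1.20 and Lpl at 0.87, all of them called. Within day 70 the wild-type side is the single library WT-1153, assumed to vary like the others, and 316 genes were called. None of the 12 largest rises in CPM was called at day 70 (0 of 12), and Lpl was at 0.73. Values within day 70 rest on that 1 library and are no separate check of the contrast.

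The same mice's livers hardly differed by label, with 3 of 13288 genes called (0.0226%). Adipocyte and liver differed in the size of the genotype effect, by edgeR's test of that difference, for 2845 of 14898 genes (19.1%), and 2529 of the genes called in adipocytes were among them. Fads1 was at -1.87 in adipocytes and 0.14 in liver (edgeR adjusted p of the difference 6.1e-06), and Hsd11b1 at 2.49 and 0.05 (1.5e-05). Kng2 and Zfp949 were called in both tissues. Zfp949, a zinc finger gene on chromosome 9, rose from 4.46 to 6.56 CPM to 13.8 to 20.1 CPM in adipocytes (1.59 ± 0.16; edgeR adjusted p = 0.000209) and by 1.75 ± 0.13 in liver. Kng2, a kininogen gene, rose from 0.464, 0.0969, 0.414 and 0.439 CPM to 13.7, 14.0, 13.1 and 14.1 CPM in adipocytes and by 0.71 ± 0.09 in liver (edgeR adjusted p = 0.04).

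Kng2 lies on chromosome 16 from 22985854 to 23029482 (GRCm38, minus strand), beside Adipoq at 23146536 to 23158028, a neighbourhood looked at after its values were seen. Within 500 kb of Adipoq 4 of 12 tested genes were higher and 2 lower in adipocytes, 50% called against 35.2% of all genes. Eif4a2, a translation initiation factor between the genes just named, rose from 390, 363, 397 and 422 CPM to 597, 635, 631 and 696 CPM (0.70 ± 0.09; edgeR adjusted p = 0.000597), and it was at 0.51 ± 0.08 in liver, where it was not called (edgeR adjusted p = 0.139). Masp1 rose from 0.776 to 1.14 CPM to 4.26 to 9.87 CPM (2.89 ± 0.28; edgeR adjusted p = 0.000154) and was at -0.37 in liver. Dnajb11 and Tbccd1 at the far edge were at -0.01 and 0.09. Around Trib1 itself, on chromosome 15, 10 of 32 tested genes within 5 Mb were higher and 6 lower, 50% called against 35.2% of all genes. Per chromosome the share called ran from 31% to 41.1%, and it was 36.9% on chromosome 15. The cause of these local values was not tested.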

How the data were processed

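RNA of collagenase-isolated adipocytes was sequenced as poly-A libraries on a NextSeq 500, per the labels' protocols. The authors deposited counts per gene for 23420 genes. The genome build was mm10 and the tools were featureCounts 1.5.0, STAR 2.5.2b and bcl2fastq 2.17, per the submitters' processing notes. Annotation and strand setting: not given in the sources used here. For that reason, antisense and overlapping genes and close paralogs are uncertain. Of the counts from 1 to 20, 77.7% were even, and halved counts were tried as an alternative.

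From the deposited counts, edgeR 4.0.16 in R 4.3.3 tested the 4 against 4 libraries (TMM, filterByExpr, quasi-likelihood, two-sided, Benjamini-Hochberg adjusted p under 0.05 over all genes tested), and the tissue difference over all 16 libraries. The tests were tried on simulated data first. DESeq2 1.42.0 and limma 3.58.1 served as alternatives, with other scalings, filters, an age term, each age alone, a stromal covariate, and each library left out. A floor of 3 counts was 0.0558 to 0.0814 CPM.

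The members and the 42 gene lists were chosen with earlier results of these data known. Named are Trib1, Adipoq, the 12 largest rises and falls in CPM, the 12 largest in log2 with at least 10 CPM in both groups and no overlap, and of each list the 3 highest and the 3 with the smallest p. Identity genes such as Lep, Pdgfra, Pecam1, Rgs5, Emr1 and Ptprc were named whatever their values, and the other genes were named after their values were seen.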

Additional observations from a re-analysis of the deposited data

Results flagged for a closer look

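In 21 of 388 groups of 4 values looked at, 1 library stood apart from the other libraries of its group, by a gap to its neighbour that passed Dixon's critical value for its share of the group's range. Chance flags about 1 in 20 groups. WT-1153 stood apart for Tmem45b at 226 CPM. WT-1136 stood apart for Bgn at 66.8, Col5a3 at 521 and Kng2 at 0.0969 CPM. WT-1135 stood apart for Retn at 841, Tgfb2 at 2.28 and Ucp1 at 56.5 CPM. KO-1151 stood apart for Kdr at 38.6 CPM. KO-1139 stood apart for Cd14 at 30.5, Me1 at 3106, Ndufs7 at 99.2 and Rassf3 at 295 CPM. KO-1137 stood apart for C3 at 2177, Col5a3 at 1205, Oxct1 at 726, Pdgfra at 6.23 and Tbccd1 at 16.5 CPM. Among summed lists those apart were fatty acid oxidation at 7837 CPM in KO-1137, Tribbles genes and partners at 2248 CPM in WT-1135, interferon-stimulated genes at 3720 CPM in WT-1153 and lymphocyte markers at 64.7 CPM in KO-1137.

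For 32 of the genes with the largest changes that were also tested in liver, the genotype effect differed between the tissues of the same mice by edgeR's test of the difference (adjusted p under 0.05). The log2 effect in adipocytes minus that in liver was positive for Hp 1.65, Cdo1 1.69, Ghr 1.23, Apoe 0.80, C3 1.01, Pcx 0.89, Saa3 2.55, 1100001G20Rik 2.61, Hsd11b1 2.46, Clmp 2.22, Tnfaip2 2.08, Rassf3 2.03, Fmr1 2.04, Dock8 2.38 and Adtrp 1.76. It was negative for Gsn -1.06, Nnat -3.92, Ifi27l2a -1.98, C4b -0.97, Iigp1 -1.72, Aqp1 -2.16, Gpr116 -1.97, Txnip -1.82, Ifit1 -3.29, Thbd -3.20, Bgn -2.41, Ifit3 -2.57, Mx2 -2.64, Thbs2 -2.25, Clu -2.17, Celsr2 -2.01 and Gm12250 -2.48. The liver effects lay between -0.39 and 0.62 except for Txnip, at 1.38 in liver (edgeR adjusted p = 0.4) and -0.46 in adipocytes. The adipocyte value of Txnip (edgeR adjusted p = 0.0417) was called among the fits that left out a library only without WT-1153 or KO-1152.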

How the results depend on the processing

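The count of 4849 called genes was 2944 with adipocyte marker scaling, 2461 within postnatal day 76, 316 within day 70 and 480 with the stromal score as a covariate. Genes called higher numbered 1293 with library totals, 906 with adipocyte marker scaling, 1306 within day 76, 163 within day 70 and 266 with the covariate. Genes called lower numbered 3899 with library totals, 1557 with cytosolic ribosome scaling, 1155 within day 76, 153 within day 70 and 214 with the covariate. The ages alone have fewer samples, and the cause of the other shifts was not tested. Without each library in turn 3553 to 5296 genes were called, and limma-voom called 4910 and DESeq2 5405. Among the 152 tested genes named in the text, 5 called falls turned to rises with the covariate, none of them called. They were Dcn at 0.019, Hk1 at 0.082, Pdgfrb at 0.31, Rgs5 at 0.53 and Trib2 at 0.15. Called falls of genes outside those 152 turned as well, endothelial markers among them. The tissue difference of 2845 genes went to 1758 to 2988 when a mouse was left out, with 1780 without WT-1135, 1798 without KO-1139 and 1758 without KO-1151. A replicate block by mouse, which ties the liver and the fat of each mouse, gave 2245. Within adipocytes no number is shared between the labels, so no paired analysis was possible there. Library depth limits values near 3 counts, such as those of H19 in knockout-labelled libraries and of Kng2 in WT-1136.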

Other observations

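Gene groups not described above were called at shares near or below the 35.2% of all genes tested, with some exceptions. Among 28 genes of the unfolded protein response and the integrated stress response, 8 rose and 0 fell (28.6% called), and with library totals 6 rose and 5 fell. Chac1, a glutathione-degrading enzyme induced by ATF4, rose by 1.75 ± 0.20 on the log2 scale. Of 27 immediate early and dissociation genes 1 rose and 6 fell (25.9%), among them Junb (-0.76 ± 0.15). Of 19 clock genes 2 rose and 2 fell (21.1%), and Hlf fell by 1.79 ± 0.27. Of 16 tested cell cycle genes 0 rose and 6 fell (37.5%). Among 34 genes of TGF-beta, BMP and Wnt signalling 6 rose and 7 fell (38.2%), and the ligand gene Tgfb2 rose by 2.74 ± 0.40. Of 23 secreted factors 5 rose and 3 fell (34.8%), and of 24 insulin signalling genes 9 rose and 1 fell (41.7%). Of 16 lipid droplet proteins 6 rose and 4 fell, a share of 62.5%.

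Of 12 tested Schwann and nerve markers 1 rose and 3 fell, 33.3% called against 35.2% of all genes. Scn7a, a sodium channel gene, rose from 231, 220, 334 and 345 CPM to 568, 656, 671 and 624 CPM (1.16 ± 0.16), while Ngfr fell by 2.20 ± 0.46. Of 12 tested granulocyte and mast cell markers 2 rose and 3 fell (41.7%). Prtn3, a neutrophil protease, fell from 27.5, 16.2, 14.4 and 28.5 CPM to 3.16, 1.89, 2.92 and 2.83 CPM (-3.01 ± 0.27). The eosinophil marker Epx, the mesothelial markers Upk1b and Wt1, and the epithelial genes Csn2, Krt15, Krt17 and Wap were at 0 in all 8 libraries. Of 10 tested hepatocyte markers 4 were called (40%), with a median of 0.02. Apoc3 (1.59), Serpina1a (1.47) and Trf (0.48) rose and Alb (-1.88) fell.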
